A study of Mus musculus with 25 samples.

Results

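Acute phase proteins are plasma proteins whose production by the liver changes during inflammation or tissue injury. On 25 arrays of mouse liver, 10 of their genes were followed: Saa1, Saa2, Saa3, Orm2, Lcn2, Hp, Hpx, Apcs, Itih4 and Fgb. They are a list of names out of 17016 gene symbols on the array, and each was read from the probe with the highest mean signal for that gene. The study deleted Mcl-1, an anti-apoptotic protein of the BCL-2 family, in hepatocytes, and compared knockout, hemizygous and wild-type littermates, and tumor with non-tumor tissue of the same liver.

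The samples fell into 8 groups by genotype, age and tissue. At 2 months there were 3 knockout (KO), 3 hemizygous (HET) and 2 wild-type (WT) livers. At 8 months there were 3 KO animals, and at 12 months 4 KO animals, and each of these 7 gave a tumor and a corresponding non-tumor sample. The last group was 3 WT livers at 12 months. No animal was treated. The labels name the deletion as hepatocyte-specific but give neither the promoter that drove the recombinase, nor the sex, nor the part of Mcl1 that was removed. RNA came from whole-liver homogenate, so each value mixes hepatocytes with every other liver cell, and fewer cells of a type and less RNA per cell cannot be told apart in such samples. Animals carry separate numbers in the labels, and p-values measure the spread between these animals only.

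In an acute phase response, macrophages and other cells release interleukin-6, interleukin-1 and related cytokines. Interleukin-6 acts on hepatocytes through its receptor and gp130 to activate STAT3, while interleukin-1 acts mainly through NF-kappaB, and factors of the C/EBP family bind many of the same promoters. The serum amyloid A proteins Saa1 and Saa2 are apolipoproteins that travel on high-density lipoprotein and are among the most inducible products of the mouse liver, and Saa3 is a further inducible family member that macrophages and fat cells also make. Orm2 is an orosomucoid (alpha-1-acid glycoprotein), Lcn2 binds bacterial siderophores and is also stored in neutrophil granules, Hp binds free hemoglobin and Hpx binds free heme. Apcs encodes serum amyloid P component, the main acute phase pentraxin of the mouse, Itih4 a heavy chain of the inter-alpha-trypsin inhibitor family, and Fgb the beta chain of fibrinogen.

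The genes lie on 7 chromosomes of GRCm38.p6, and the 3 Saa genes are neighbors. Saa3 occupies chr7:46711998-46719615, Saa1 chr7:46740497-46743181 and Saa2 chr7:46751833-46754313, with 20882 bases between Saa3 and Saa1 and 8652 bases between Saa1 and Saa2. Hpx is on the same chromosome at chr7:105591611-105600116. Orm2 lies at chr4:63362449-63365877, Lcn2 at chr2:32384637-32387739 and Hp at chr8:109575128-109579172. Apcs lies at chr1:172893961-172895054, Itih4 at chr14:30886476-30901986 and Fgb at chr3:83042246-83049863.

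The promoters of the 3 Saa genes, Lcn2 and Fgb are shown because the Saa genes moved together across animals, Lcn2 varied most and Fgb was among the steadiest. Each line holds the 250 bases before the transcript start, 5′ to 3′ on the gene's strand, from RefSeq on GRCm38.p6, with matches to the motifs described after the lines in capitals. The windows are chr7:46742981-46743230 (minus strand) for Saa1, chr7:46751583-46751832 (plus) for Saa2, chr7:46715677-46715926 (minus) for Saa3, chr2:32387740-32387989 (minus) for Lcn2 and chr3:83049864-83050113 (minus) for Fgb. For Saa1 and Saa3 the start used lies inside the outermost bounds of the gene.
Saa1: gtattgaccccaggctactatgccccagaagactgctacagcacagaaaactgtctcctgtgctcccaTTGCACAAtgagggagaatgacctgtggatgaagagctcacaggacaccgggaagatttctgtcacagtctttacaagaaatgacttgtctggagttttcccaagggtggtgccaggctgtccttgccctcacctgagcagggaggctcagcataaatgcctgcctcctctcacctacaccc
Saa2: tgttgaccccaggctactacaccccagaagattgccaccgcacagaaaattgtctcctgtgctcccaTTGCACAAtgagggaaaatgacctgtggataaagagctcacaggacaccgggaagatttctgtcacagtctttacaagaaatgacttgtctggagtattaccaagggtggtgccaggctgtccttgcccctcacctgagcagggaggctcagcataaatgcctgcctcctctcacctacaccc
Saa3: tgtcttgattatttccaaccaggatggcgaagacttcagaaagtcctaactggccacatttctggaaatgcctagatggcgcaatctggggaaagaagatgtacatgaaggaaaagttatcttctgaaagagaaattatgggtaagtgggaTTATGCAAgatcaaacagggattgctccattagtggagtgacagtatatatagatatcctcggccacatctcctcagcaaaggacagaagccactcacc
Lcn2: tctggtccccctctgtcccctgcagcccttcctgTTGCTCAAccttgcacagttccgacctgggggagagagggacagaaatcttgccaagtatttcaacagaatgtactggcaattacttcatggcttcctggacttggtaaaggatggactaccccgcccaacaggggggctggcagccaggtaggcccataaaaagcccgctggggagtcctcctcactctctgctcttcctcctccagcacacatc
Fgb: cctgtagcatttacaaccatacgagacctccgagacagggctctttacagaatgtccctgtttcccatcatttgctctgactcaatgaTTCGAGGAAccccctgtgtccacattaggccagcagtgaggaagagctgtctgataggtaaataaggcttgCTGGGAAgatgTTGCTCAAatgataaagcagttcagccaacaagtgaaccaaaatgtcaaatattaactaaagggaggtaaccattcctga
The Saa1 and Saa2 windows were identical in 238 of 251 alignment columns (94.8%), whereas Saa3 matched Saa1 in 48.9% of columns and Saa2 in 47.9%. Saa1 and Lcn2, which are not related genes, matched in 49.0%.

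Of the 10 genes, 9 had a window, and Hp had none in the table. The C/EBP motif TTGCNNAA, searched on both strands, was present in 7 of the 9 windows (Saa1, Saa2, Saa3, Orm2, Lcn2, Hpx and Fgb), against 9.56% of all 32851 promoter windows of the same length. In Saa1 it lay 182 to 175 bases before the start, in Saa2 183 to 176, in Saa3 99 to 92 on the opposite strand, in Lcn2 216 to 209 and in Fgb 80 to 73. The STAT motif TTCNNNGAA was present in 3 windows (Apcs, Itih4 and Fgb), against 7.02% of all windows. The interleukin-6 type 2 element CTGGGAA was present in 2 windows (Apcs and Fgb), against 9.10% of all windows, and in Fgb it lay 91 to 85 bases before the start, next to the C/EBP match. No window held the NF-kappaB consensus, which 7.25% of all windows held. These matches describe letters and do not show that a factor bound.

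Levels are given as log2 of the processed array signal with the 75th percentile of that array subtracted, so 0 is the signal of a probe at the 75th percentile of its array and 1 unit is a doubling. Differences between genes in this level also reflect their probes, so levels are compared only within a gene. Arrays had 60.2% to 84.8% of probes well above background, with WT animal 641 highest and the next array at 76.3%. They lay on 8 slides scanned on 2 days. On 1 of these days only 3 arrays were scanned, those of WT animals 552 and 1110 (12 months) and the tumor of KO animal 1347. Mcl1 had levels of 1.46 to 3.06 on the 17 KO arrays, 3.20 to 3.58 on the 3 HET arrays and 3.88 to 4.50 on the 5 WT arrays, so the genotypes did not overlap and matched their labels. Xist was well above background on 1 of 3 KO, 3 of 3 HET and 1 of 2 WT arrays at 2 months. On KO non-tumor arrays it was so on 3 of 3 at 8 months and 2 of 4 at 12 months, and on 1 of 3 WT arrays at 12 months. The sexes were thus unevenly spread. Among tumors it was so on 2 of 3 arrays at 8 months, against 3 of 3 in non-tumor tissue of the same animals, and 2 of 4 at 12 months. The reason for this disagreement at 8 months was not tested. The hepatocyte markers Alb, Apob, Ttr and Hnf4a were well above background on all 25 arrays.

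All 10 acute phase genes were well above background on all 25 arrays, and none was saturated. Lcn2 had the widest span, from -2.65 to 4.49, a 142-fold range. Saa1, Saa2 and Saa3 spanned 82.1-fold, 81.9-fold and 67.5-fold. Orm2 spanned 8.11-fold, Itih4 6.71-fold, Apcs 5.07-fold and Hpx 2.94-fold. Fgb and Hp were the steadiest, with 2.00-fold and 1.94-fold between the lowest and the highest array.

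**Figure D1:**
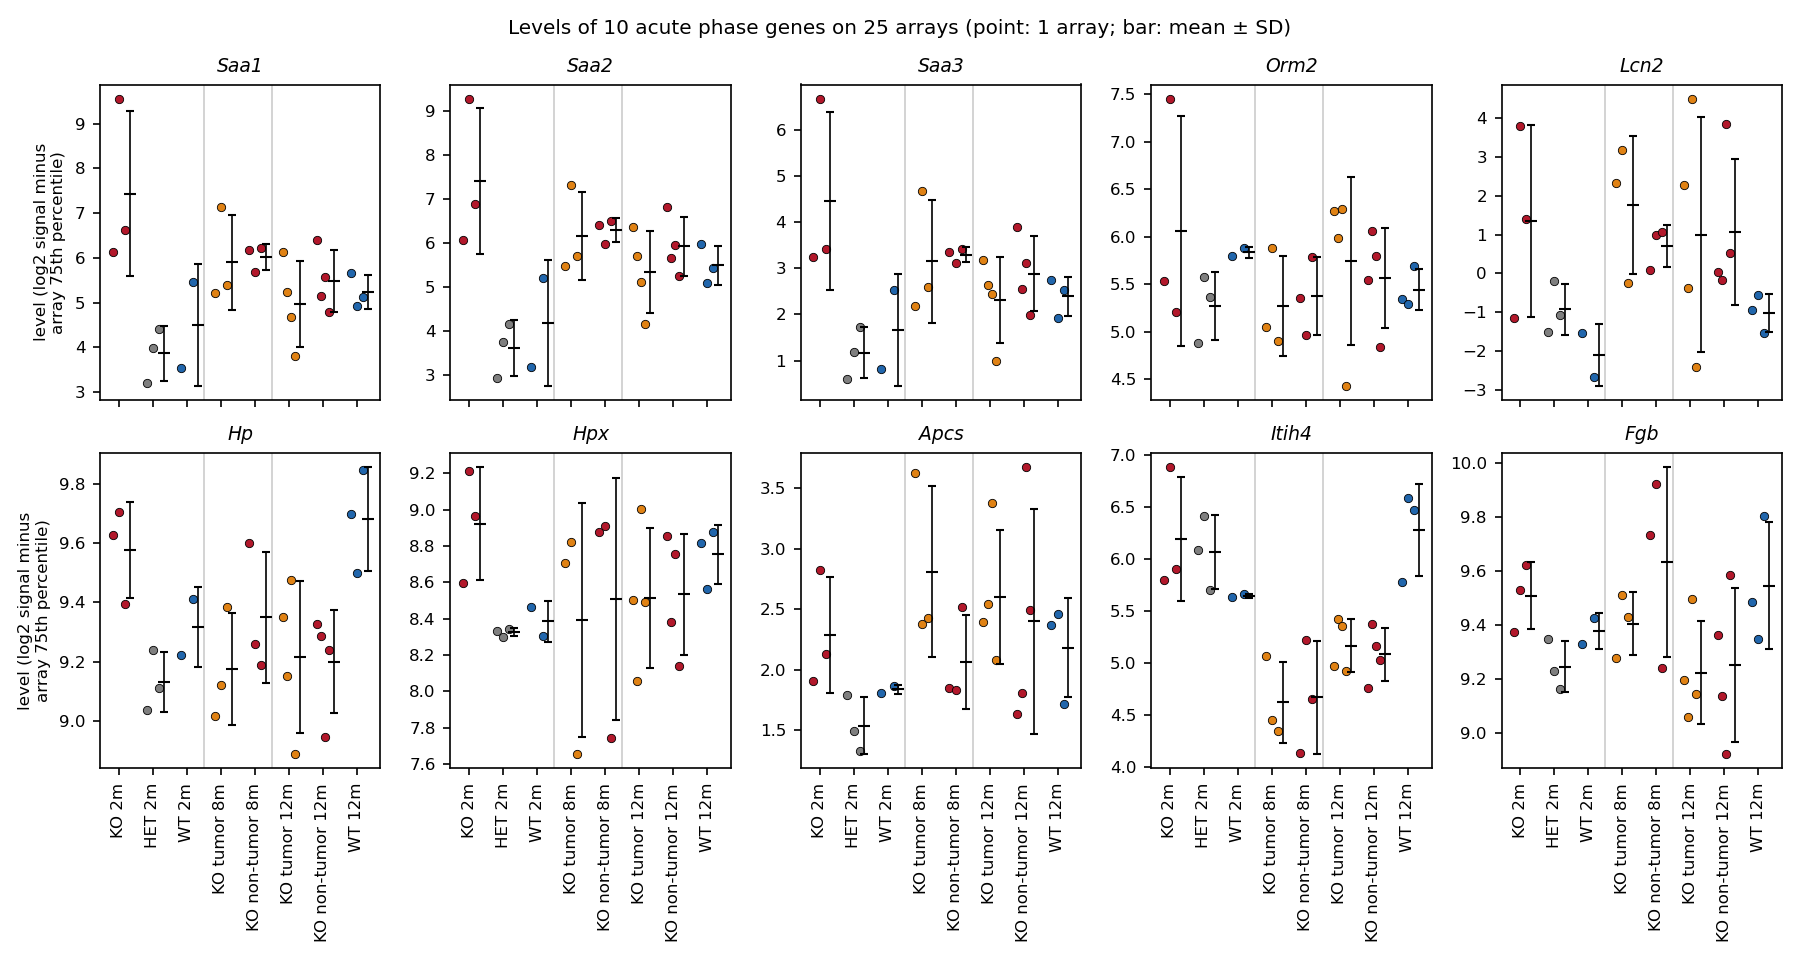
Level of each acute phase gene (log2 units above the 75th percentile of its array, vertical axis) on each of the 25 arrays, by group, with points for single arrays and bars for the mean ± SD of a group. KO livers at 2 months have the highest means for Saa1, Saa2 and Saa3, Lcn2 is widely scattered in most KO groups, and Hp and Fgb vary little.

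The genotype comparison at 2 months asked how loss of Mcl-1 from hepatocytes alters the liver of young animals. The 3 KO livers had more Saa1, Saa2 and Saa3 transcript than each HET and each WT liver, on average 7.62-fold, 9.34-fold and 6.89-fold over WT, and 11.9-fold, 13.9-fold and 9.72-fold over HET. Lcn2 was 11.0-fold over WT and 4.85-fold over HET on average. Hp, Fgb and Orm2 differed from WT by less than their standard errors or little more. None of the 10 genes passed the adjusted test in either comparison, where 0.0259% of features passed against WT and 0.0518% against HET. Both comparisons use the same 3 KO arrays and are not independent of each other.

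Saa1 had levels of 6.13, 9.56 and 6.63 in KO livers, against 3.20, 3.99 and 4.41 in HET livers and 3.54 and 5.47 in WT livers. Saa2 had levels of 6.06, 9.27 and 6.88 in KO livers, against 2.91, 3.74 and 4.15 in HET livers and 3.17 and 5.19 in WT livers. Saa3 had levels of 3.25, 6.68 and 3.43 in KO livers, against 0.60, 1.19 and 1.72 in HET livers and 0.81 and 2.53 in WT livers. For all 3 genes KO animal 64 stood far above the other KO animals, WT animal 34 lay above WT animal 31, and the KO values overlapped neither those of HET nor those of WT. Group means of Saa1 were 7.44 ± 1.85 in KO livers (SD, n = 3), 3.87 ± 0.62 in HET livers (SD, n = 3) and 4.51 ± 1.36 in WT livers (SD, n = 2).

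In limma's moderated test the difference between KO and WT was 2.93 (SE 0.83, adjusted p = 0.324) for Saa1, 3.22 (SE 0.79, adjusted p = 0.255) for Saa2 and 2.78 (SE 0.85, adjusted p = 0.357) for Saa3. Between KO and HET it was 3.57 (SE 0.75, adjusted p = 0.146) for Saa1, 3.80 (SE 0.71, adjusted p = 0.120) for Saa2 and 3.28 (SE 0.76, adjusted p = 0.186) for Saa3. The Saa differences were several times their standard errors and did not pass the threshold of 0.05 after adjustment over all features. A second Saa1 probe gave differences of 3.06 between KO and WT and 3.75 between KO and HET. Saa1 and Saa2 are near-identical copies, and how far each probe reads both transcripts was not tested. Without KO animal 64 the differences between KO and WT were 1.87 for Saa1, 2.29 for Saa2 and 1.67 for Saa3, and those between KO and HET were 2.51, 2.86 and 2.17. Without WT animal 31 the differences between KO and WT were 1.97 for Saa1, 2.21 for Saa2 and 1.92 for Saa3. Those between KO and HET reached an adjusted p of 0.037 for Saa1 with the deposited matrix and of 0.023 to 0.042 for Saa2 under 4 of the alternative settings.

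Lcn2 was less regular than the Saa genes. It had levels of -1.14, 3.80 and 1.41 in KO livers, against -1.50, -0.20 and -1.06 in HET livers and -1.53 and -2.65 in WT livers. KO animals 64 and 69 lay above every HET and WT liver, whereas KO animal 137 lay within the HET range. The difference was 3.45 (SE 1.23, adjusted p = 0.432) between KO and WT and 2.28 (SE 1.10, adjusted p = 0.615) between KO and HET. Without KO animal 64 these were 2.23 and 1.06. With the slide as a fixed block, where KO animal 137 alone entered, they were 0.75 and -0.29.

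The slides and the uneven spread of Xist limit these values. When the fit held Xist as a covariate, the differences between KO and HET were 2.94 for Saa1, 3.22 for Saa2 and 2.55 for Saa3, and those between KO and WT were 2.67, 2.98 and 2.48. KO and WT livers of 2 months shared no slide, and 1 slide held a KO animal of that age (137) with 2 HET animals (27 and 28). Within that slide KO exceeded HET by 2.53 for Saa1, 2.73 for Saa2 and 2.35 for Saa3, while Lcn2 differed by -0.29. With the slide as a fixed block the differences between KO and WT were 2.43 for Saa1, 2.71 for Saa2 and 2.41 for Saa3. Only KO animal 137 entered these values, linked to WT animals 31 and 34 through HET animals 27, 28 and 30. KO animals 64 and 69 did not enter them, so they are no separate check of the value within the slide. The Saa differences therefore had the same direction within the slide, and that of Lcn2 from HET did not.

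Hpx, Apcs and Itih4 were higher in every KO liver than in either WT liver, by 0.54 (SE 0.35), 0.45 (SE 0.50) and 0.55 (SE 0.40). With the slide as a fixed block, where KO animal 137 alone entered, Apcs turned to -0.24 and Itih4 to -0.40 while Hpx was 0.23. Without KO animal 64 Apcs was 0.18 and Itih4 0.20. Orm2 differed between KO and WT by 0.23 (SE 0.54), Hp by 0.26 (SE 0.23) and Fgb by 0.13 (SE 0.27). Orm2 had levels of 5.53, 7.45 and 5.21 in KO livers, against 4.88, 5.57 and 5.37 in HET livers and 5.79 and 5.88 in WT livers, so that KO animal 64 alone exceeded the other groups. Hp had levels of 9.63, 9.71 and 9.39 in KO livers, against 9.04, 9.24 and 9.11 in HET livers and 9.22 and 9.41 in WT livers. For Hp the KO range touched that of WT but not that of HET, with a difference between KO and HET of 0.45 (SE 0.21), which shrank to between 0.11 and 0.19 under 3 other scalings.

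Counted over the list, 0 of 10 genes passed the adjusted threshold between KO and WT, where 0.0259% of 27016 features did. Saa1, Saa2, Saa3 and Lcn2 (4 of 10) had an unadjusted p under 0.05 with KO higher, against 4.54% of features. KO lay wholly above WT for 7 of 10 genes, against 17.5% of features, and all 10 differences were positive. The median difference was 0.54 over the 10 genes and -0.01 over all features. Between KO and HET 0 of 10 passed, against 0.0518% of 27019 features. An unadjusted p under 0.05 with KO higher was reached by Saa1, Saa2, Saa3 and Hp (4 of 10), against 4.04%. KO lay wholly above HET for 7 of 10, against 16.1%, with a median of 0.77 for the genes and 0.06 for all features. The list was chosen with earlier results of these data known, so counts over it here and below are descriptions only. The Saa genes moved almost as one across animals and do not count as separate results.

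**Figure D2:**
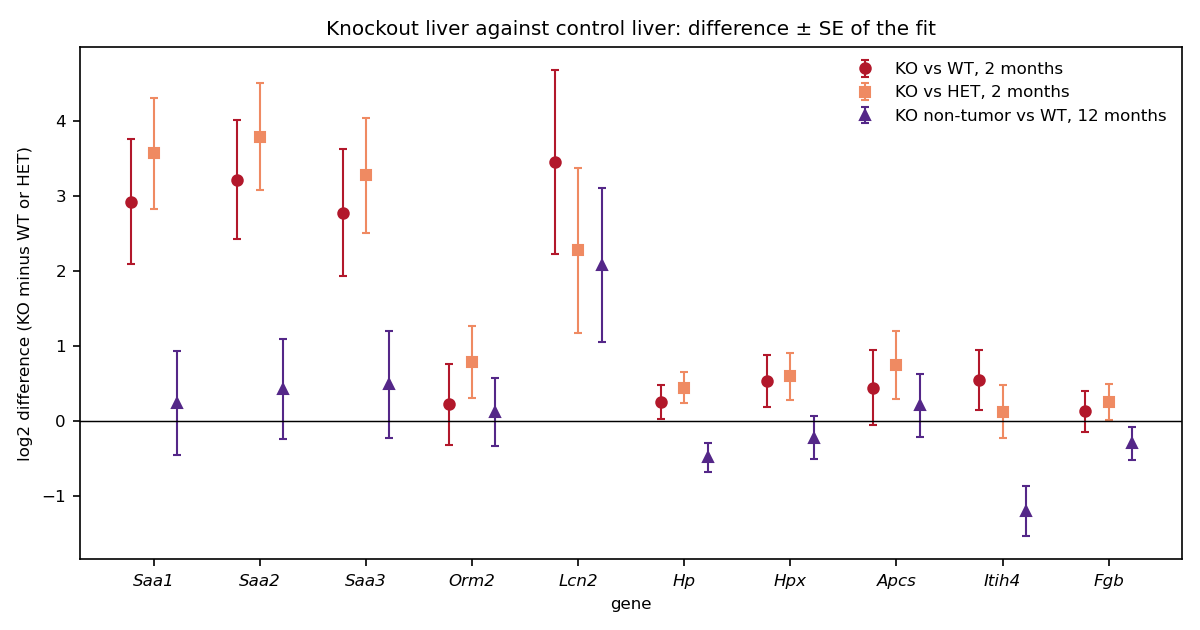
Difference in level (log2, vertical axis) of each acute phase gene (horizontal axis) for KO minus WT and KO minus HET at 2 months and KO non-tumor minus WT at 12 months, with bars for the standard error of the fit. At 2 months the Saa genes stand at 2.78 to 3.22 over WT and at 3.28 to 3.80 over HET, at 12 months at 0.24 to 0.49 over WT, and no difference passed the adjusted threshold.

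Between HET and WT livers at 2 months the acute phase genes differed by less than or about their standard errors. Saa1 differed by -0.64 (SE 0.83), Saa2 by -0.57 (SE 0.79) and Saa3 by -0.50 (SE 0.85), with overlapping groups, and Lcn2 by 1.17 (SE 1.23). None of the 10 passed the test, and neither did any of 27015 features (0%) with limma, although 334 features (1.24%) had an unadjusted p under 0.05. HET lay wholly above WT for Lcn2 and Itih4 (8.55% of features) and wholly below it for Orm2 and Apcs (9.94%). On the slide that held HET animal 30 with both WT animals, Saa1 differed by -0.10, Saa2 by -0.02 and Saa3 by 0.06.

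The cytokines that drive the response, their receptors and their transcription factors were read on the same arrays from lists of genes. Of 7 measured ligands, 0 passed the adjusted test between KO and WT and 2 had an unadjusted p under 0.05, both higher, against 4.54% of all features. Il1b, which encodes interleukin-1 beta, had levels of -0.70, -1.99 and -1.21 in KO livers, against -2.93, -1.75 and -3.76 in HET livers and -4.13 and -3.55 in WT livers. KO exceeded WT in Il1b by 2.54 (SE 0.63, adjusted p = 0.255) without overlap, and exceeded HET by 1.51 (SE 0.56) with overlap. Il1a, which encodes interleukin-1 alpha, was well above background in the 3 KO livers and in neither WT liver, and was at least 4.30-fold higher in KO (adjusted p = 0.190). That bound sets the mean of the KO levels against the lowest signal well above background on the WT arrays. Il1a was also well above background in the 3 HET livers, which all lay above both WT livers, and KO differed from HET by 0.78 (SE 0.54) with overlap. Il6 was not among the 2, with levels of -4.79, -3.64 and -3.88 in KO livers, against -4.48, -5.24 and -3.46 in HET livers and -3.54 and -4.88 in WT livers, and these overlapped.

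Of 9 measured receptors, 0 passed the adjusted test and 2 had an unadjusted p under 0.05, both lower in KO, against 4.34% of all features. Il6ra, the ligand-binding chain of the interleukin-6 receptor, had levels of -1.47, -1.47 and -1.56 in KO livers, against 0.08, 1.36 and 0.26 in HET livers and 0.48 and -0.10 in WT livers. The KO animals were almost equal and lay below all 5 others. The difference was -1.69 (SE 0.54, adjusted p = 0.381) from WT and -2.07 (SE 0.49, adjusted p = 0.191) from HET. Il1r1, the signaling receptor for interleukin-1, had levels of 1.38, 1.37 and 1.19 in KO livers, against 2.26, 2.41 and 2.99 in HET livers and 2.93 and 3.02 in WT livers. It differed by -1.66 (SE 0.41, adjusted p = 0.255) from WT and by -1.24 (SE 0.37, adjusted p = 0.357) from HET, again without overlap.

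Of 11 measured signal transducers and transcription factors, 0 passed the adjusted test, and between KO and WT 1 was higher and 2 were lower at an unadjusted p under 0.05, against 4.54% and 4.34% of all features. Cebpb, which encodes a C/EBP factor that binds acute phase promoters, had levels of 1.68, 2.08 and 2.06 in KO livers, against 3.11, 3.85 and 3.40 in HET livers and 3.68 and 3.01 in WT livers. It differed by -1.41 (SE 0.43, adjusted p = 0.357) from WT and by -1.52 (SE 0.39, adjusted p = 0.257) from HET. Cebpd, a related factor, differed by -1.43 (SE 0.56) from WT and by -1.33 (SE 0.50) from HET. Nfkb2, a subunit of NF-kappaB, was the 1 on the higher side, with differences of 1.02 (SE 0.35) from WT and 0.77 (SE 0.31) from HET. Of 5 feedback inhibitors, 0 passed and Nfkbia, which encodes an inhibitor of NF-kappaB, was lower in KO than in WT by an unadjusted p under 0.05, with a difference of -0.85 (SE 0.32).

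Other acute phase genes of the liver were read in the same way. Of 24 further positive acute phase genes 0 passed the adjusted test, 1 was higher and 1 was lower at an unadjusted p under 0.05 (4.54% and 4.34% of all features), and their median difference was 0.18. Fga, the fibrinogen alpha chain, was the 1 on the higher side, with a difference of 1.03 (SE 0.46), and had levels of 6.99, 7.94 and 7.12 in KO livers, against 6.81, 6.89 and 5.78 in HET livers and 6.23 and 6.43 in WT livers. Saa4, the family member that is made constitutively, differed by -1.31 (SE 0.57), with levels of 4.54, 4.05 and 2.86 in KO livers, against 4.01, 4.88 and 5.34 in HET livers and 4.97 and 5.29 in WT livers. Crp, a strong acute phase gene in humans and a weak one in mice, differed from HET by -0.82 (SE 0.35). Of 8 negative acute phase genes, those whose products fall in inflammation, none had an unadjusted p under 0.05, and their median difference from WT was -0.21.

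**Figure D3:**
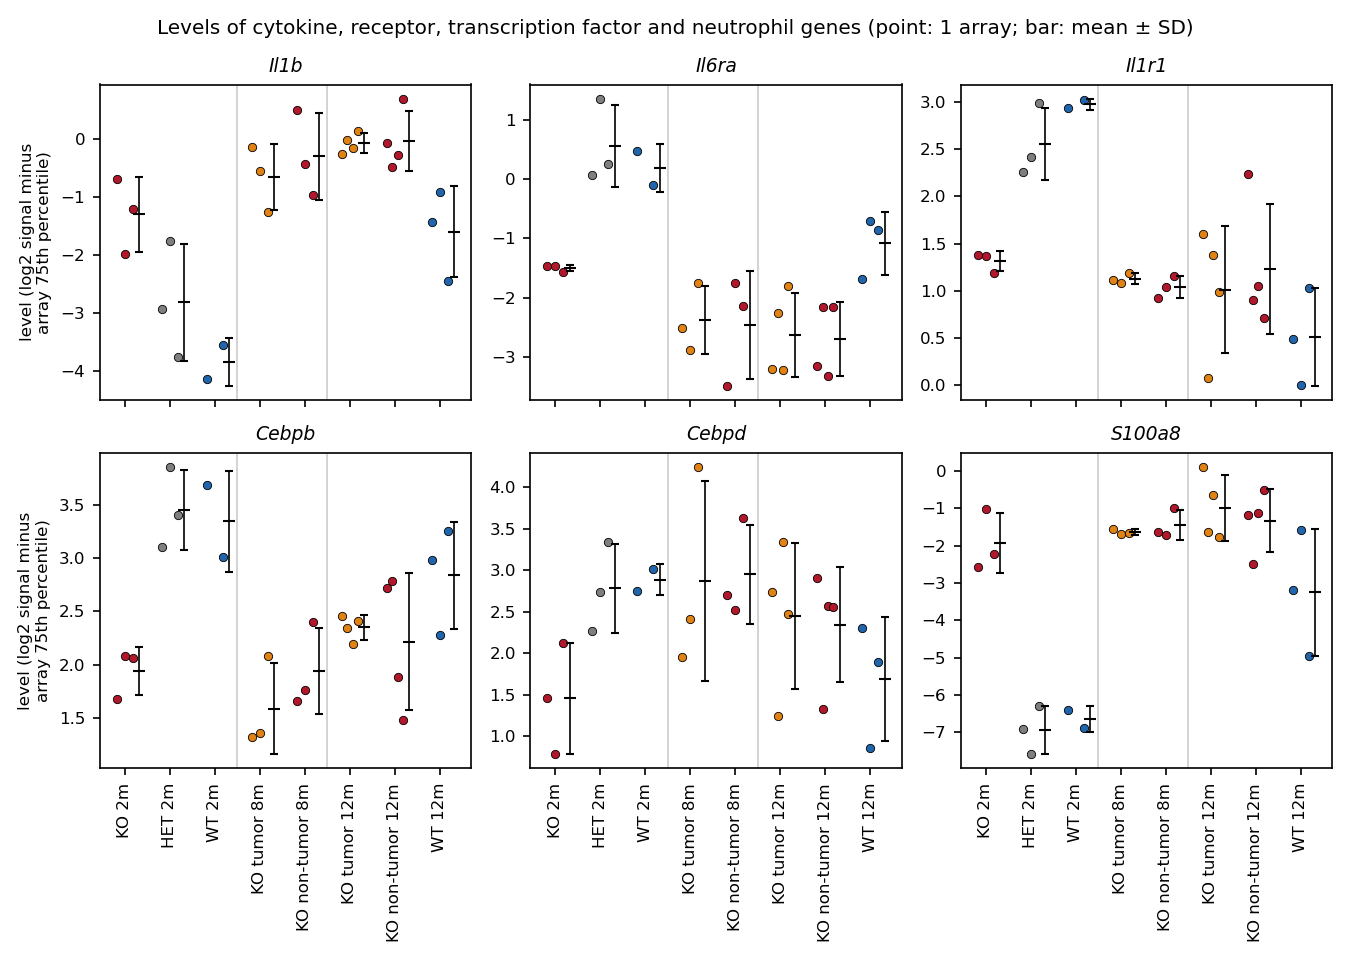
Level of the ligand gene Il1b, the receptor genes Il6ra and Il1r1, the transcription factor genes Cebpb and Cebpd and the neutrophil gene S100a8 (log2 units above the 75th percentile of its array, vertical axis) on single arrays of the 8 groups, with bars for the mean ± SD. At 2 months Il6ra, Il1r1 and Cebpb are lower on all 3 KO arrays than on the HET and WT arrays, and Il1b is higher on the KO arrays than on both WT arrays.

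Of the markers of neutrophils and macrophages, S100a8 and S100a9 rose in KO against HET at 2 months, and no other of the 22 tested passed the adjusted threshold in that comparison or against WT. At an unadjusted p under 0.05, 5 of 11 tested neutrophil markers were higher in KO than in WT and 5 in KO than in HET, as were 7 and 4 of 11 macrophage markers, against 4.54% and 4.04% of all features. Csf3r, the receptor for granulocyte colony-stimulating factor, lay on the other side, with differences of -0.53 from WT (SE 0.49) and -0.70 from HET (SE 0.43). The mean level of 12 measured neutrophil markers was -4.07 to -2.35 in KO livers, -5.89 to -4.63 in HET livers and -5.62 to -5.14 in WT livers. Elane was well above background on no KO array. On HET arrays S100a8, Camp, Mmp8, Mmp9, Elane and Retnlg were above background nowhere, and on WT arrays the same was true of these 6, Ngp and Cxcr2. S100a9, an abundant neutrophil calcium-binding protein, rose by 4.22 over HET (SE 0.60, adjusted p = 0.0253), with levels of 0.54, 2.39 and 0.88 in KO livers, against -2.79, -3.13 and -2.92 in HET livers. Its partner S100a8 rose at least 16.0-fold over HET (adjusted p = 0.0253). Apart from Mcl1, which fell by 2.44 in KO against WT (SE 0.37, adjusted p = 0.0457), these were the only listed genes past the threshold in any of the 12 comparisons. The mean level of 11 measured macrophage markers was 0.67 to 0.79 in KO livers, -0.75 to -0.40 in HET livers and -0.91 to -0.80 in WT livers. KO animal 64 had the highest Saa1, Saa2, Saa3, Lcn2 and Orm2 levels of its group and also the highest S100a8 and S100a9. The part of these cells in the levels of Lcn2 and Saa3 was not tested.

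At 12 months the question was whether non-tumor liver of KO animals differs from WT liver. The Saa genes of the 4 KO livers overlapped the WT range, and Itih4 and Hp lay wholly below WT and Lcn2 wholly above it, although the sign for Hp depended on the scaling. Again none of the 10 passed the adjusted test, where 0.0185% of 27024 features did.

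Itih4 had levels of 4.76, 5.37, 5.17 and 5.03 in KO non-tumor livers, against 5.78, 6.59 and 6.47 in WT livers. All 4 KO livers lay below all 3 WT livers, and the difference was -1.19 (SE 0.33, adjusted p = 0.126), a 2.29-fold lower level. Without KO animal 638 the difference was -1.29 with an adjusted p of 0.037, and over all alternatives it lay between -1.50 and -1.03. Hp had levels of 9.33, 9.29, 8.95 and 9.24 in KO non-tumor livers, against 9.70, 9.50 and 9.85 in WT livers, and the groups did not overlap. The difference in Hp was -0.48 (SE 0.19, adjusted p = 0.219), and it turned to between 0.06 and 0.09 under 3 other scalings, which moved the median of all features by 0.10 to 0.14. Lcn2 had levels of 0.04, -0.16, 3.85 and 0.52 in KO non-tumor livers, against -0.95, -0.56 and -1.53 in WT livers. It lay higher in all 4 KO livers, by 2.08 (SE 1.03, adjusted p = 0.318), and by 1.15 without KO animal 702, whose level stood far above the others.

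Saa1 had levels of 6.41, 5.15, 5.58 and 4.79 in KO non-tumor livers, against 5.67, 4.92 and 5.12 in WT livers, which overlapped. The difference was 0.24 (SE 0.70) for Saa1, 0.43 (SE 0.66) for Saa2 and 0.49 (SE 0.71) for Saa3, each under its standard error. The differences were 0.12 (SE 0.45) for Orm2, 0.22 (SE 0.42) for Apcs, -0.22 (SE 0.29) for Hpx and -0.29 (SE 0.22) for Fgb. Fgb took the other sign under the same 3 scalings (0.30 to 0.34). KO and WT livers of 12 months shared no slide, so slide and genotype cannot be told apart there. Of the 10 genes, Hp and Itih4 had an unadjusted p under 0.05 (2 lower, against 8.64% of features) and none was higher at that level. KO lay wholly above WT for 1 gene (5.44% of features) and wholly below it for 2 (4.78%). The median difference was 0.17 over the 10 genes and -0.09 over all features.

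At this age Il6ra was again lower in KO, with levels of -3.15, -2.16, -3.32 and -2.16 in KO non-tumor livers, against -1.69, -0.70 and -0.86 in WT livers (difference -1.62, SE 0.46, adjusted p = 0.126). Il1b differed by 1.56 (SE 0.52, adjusted p = 0.160), with levels of -0.07, -0.49, -0.28 and 0.68 in KO non-tumor livers, against -1.43, -0.91 and -2.46 in WT livers. Both genes separated the groups without overlap. Il1r1 and Cebpd, which were lower in KO at 2 months, were on average not lower in KO than in WT at this age. Il6 was well above background on 3 of 4 KO arrays and 1 of 3 WT arrays, so its difference of 2.32 (SE 0.78) rests on values partly at background. Cebpa, the C/EBP factor of differentiated hepatocytes, differed by -1.27 (SE 0.41, adjusted p = 0.152). Among the further acute phase genes, 3 of 24 were higher and 2 lower at an unadjusted p under 0.05, against 8.62% and 8.64% of all features. Of the 24 differences 14 were positive and 10 negative, with a median of 0.34, against -0.09 over all features. The lower ones were Lbp, the lipopolysaccharide-binding protein, with a difference of -1.07 (SE 0.34), and C4b, a complement component, with one of -0.91 (SE 0.29). Neutrophil marker means ran from -4.43 to -2.83 in KO non-tumor livers and from -4.96 to -2.22 in WT livers, where the highest value belonged to animal 641. Macrophage marker means ran from 0.75 to 1.46 in KO non-tumor livers and from -1.60 to 0.36 in WT livers.

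The difference between KO and WT was smaller at 12 months than at 2 months for the Saa genes, but the test of that change passed for none of them. The KO effect at 12 months minus that at 2 months was -2.69 for Saa1 (SE 1.09, adjusted p = 0.486), -2.79 for Saa2 (SE 1.04, adjusted p = 0.477), -2.29 for Saa3 (SE 1.11, adjusted p = 0.527) and -1.74 for Itih4 (SE 0.52, adjusted p = 0.457). It was -1.37 for Lcn2 (SE 1.60) and -0.74 for Hp (SE 0.30). All 10 values were negative, with a median of -1.07 over the genes and -0.06 over all features. An unadjusted p under 0.05 was reached by Saa1, Saa2, Hp and Itih4 (4 lower, against 4.83% of features). Without KO animal 64 the values were -1.63 for Saa1, -1.86 for Saa2 and -1.18 for Saa3, and without WT animal 31 they were -1.72, -1.78 and -1.43. Under 3 other scalings Hp shrank to between -0.18 and -0.07, and Fgb took the other sign (0.14 to 0.22). Among the receptor and C/EBP genes that were lower in KO at 2 months, the same value was 2.38 for Il1r1 (SE 0.53) and 2.08 for Cebpd (SE 0.73). These exceeded in size their differences from WT at 2 months, -1.66 and -1.43. Neither gene was thus lower in KO at 12 months on average. For Cebpb the value was 0.79 (SE 0.57) and for Il6ra 0.07 (SE 0.71). Over all features 0 of 27016 passed the adjusted threshold (0%) with limma, against 2594 at an unadjusted p under 0.05.

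Among KO livers without tumor tissue, Saa1 averaged 7.44 ± 1.85 at 2 months (SD, n = 3), 6.03 ± 0.29 at 8 months (SD, n = 3) and 5.48 ± 0.70 at 12 months (SD, n = 4). Saa2 averaged 7.40 ± 1.67, 6.28 ± 0.28 and 5.91 ± 0.66, and Saa3 4.45 ± 1.93, 3.30 ± 0.17 and 2.89 ± 0.81, at the same ages and numbers. The spread between animals at 2 months was much wider than at 8 months and the groups overlapped. Itih4 averaged 6.19 ± 0.60, 4.67 ± 0.54 and 5.08 ± 0.26, and its values at both later ages lay wholly below those at 2 months. KO livers of different ages shared no slide, so slide and age cannot be told apart in any of these comparisons.

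In limma's test 12 against 2 months differed by -1.96 for Saa1 (SE 0.70, adjusted p = 0.215), -1.49 for Saa2 (SE 0.66, adjusted p = 0.273), -1.56 for Saa3 (SE 0.71, adjusted p = 0.280) and -1.11 for Itih4 (SE 0.33, adjusted p = 0.206). Saa1, Saa2, Saa3 and Itih4 (4 of 10) were lower at the later age at an unadjusted p under 0.05, against 10.3% of features, and Hp and Itih4 lay wholly lower, against 13.6%. Without KO animal 64 the differences at 12 against 2 months shrank to -0.90 for Saa1, -0.55 for Saa2 and -0.45 for Saa3, so that their size rests largely on that animal. Hp, at -0.37, took the other sign under 3 other scalings (0.18 to 0.20). At 8 against 2 months Itih4 differed by -1.52 (SE 0.36, adjusted p = 0.136) and Saa1 by -1.41 (SE 0.75), which was -0.35 without KO animal 64. There 1 of 10, Itih4, had an unadjusted p under 0.05 and was lower (7.54% of features), and the same gene alone lay wholly lower (11.5%). None of the 10 passed at 12 months, where 0.0074% of features did, or at 8 months, where 0 of 27023 (0%) did and 4345 had an unadjusted p under 0.05. The median over the 10 genes was -0.44 at 12 months and -0.67 at 8 months, against -0.07 and -0.02 over all features, and without KO animal 64 the median at 8 months was -0.10. Without that animal Orm2 at 12 against 2 months turned to 0.19. Between 12 and 8 months the largest differences among the 10 were -0.55 for Saa1 (SE 0.70) and 0.41 for Itih4 (SE 0.33), which was 0.14 without animal 1347, no group separated from the other and none passed (0% of features, with 1418 at an unadjusted p under 0.05).

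In WT livers 12 against 2 months differed by 1.31 for Saa2 (SE 0.79), 0.73 for Saa1 (SE 0.83) and 0.73 for Saa3 (SE 0.85), and 9 of the 10 values were positive with a median of 0.50 (-0.03 over all features). None of the 10 passed, against 0.0407% of features. Hp, Hpx, Itih4 and Lcn2 were wholly higher at 12 months (15.5% of features) and Orm2 wholly lower (12.4%). The group of 2 months held only 2 animals. Without WT animal 31 the differences were 0.29 for Saa2, -0.23 for Saa1 and -0.13 for Saa3, and without WT animal 34 they were 2.32, 1.69 and 1.58. Lcn2 differed by 1.08 (SE 1.23). With the slide as a fixed block Lcn2 turned to -2.42, Saa1 to -0.74, Saa3 to -0.72, Saa2 and Hpx each to -0.29 and Itih4 to -0.20. WT livers of the 2 ages shared no slide, so these values came through a chain of HET and KO animals. WT animal 641 alone stood for 12 months, and the chain set KO animals 64 and 69 against KO animal 137. These values therefore also hold the differences among KO animals.

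Tumors were set against non-tumor tissue of the same 7 KO animals. The tumor and non-tumor samples of animal 1347 lay on different slides and scan days, so tissue and slide cannot be told apart in that pair. Every other pair shared a slide and a scan day. No acute phase gene was higher or lower in the tumor of every animal, and the sizes and signs varied from animal to animal. The Saa genes were lower in the tumor of 5 animals and higher in 2, and Lcn2 was higher by 2.19 to 2.24 in the tumors of 3 animals and lower in those of 3 others, by up to 2.93 in animal 793 (tumor minus non-tumor -2.93).

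Tumor minus non-tumor values of Saa1 were -0.96, 1.43 and -0.83 in animals 1347, 1287 and 934 (8 months) and -0.29, 0.10, -0.89 and -0.97 in animals 1109, 638, 702 and 793 (12 months). Values of Saa2 ran from -1.10 to 1.34 and values of Saa3 from -1.18 to 1.58, with the same 2 animals (1287 and 638) positive. The mean difference was -0.34 for Saa1 (SE 0.30), -0.39 for Saa2 (SE 0.29) and -0.39 for Saa3 (SE 0.32), and without animal 1287 it was -0.64, -0.68 and -0.71. Lcn2 had levels of 2.33, 3.18 and -0.23 in the 8-month tumors, against 0.09, 0.99 and 1.06 in their non-tumor tissue. It had levels of 2.28, -0.37, 4.49 and -2.41 in the 12-month tumors, against 0.04, -0.16, 3.85 and 0.52 in their non-tumor tissue. Animal 702 was high in both tissues, animals 1347, 1287 and 1109 were higher in tumor, and animals 934 and 793 were higher in non-tumor tissue. Over all 7 animals Lcn2 differed by 0.41 (SE 0.64).

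Apcs was higher in 4 of 7 tumors, up to 1.78 in animal 1347, with a mean of 0.43 (SE 0.27), or 0.21 without that animal. Orm2 differed by 0.06 (SE 0.24), Itih4 by 0.03 (SE 0.20), Hp by -0.07 (SE 0.16), Hpx by -0.06 (SE 0.14) and Fgb by -0.11 (SE 0.17), so these 5 differed between tissues by less than their standard errors. None of the 10 passed the paired test, in which 0 of 24580 features passed (0%) with limma and 992 (4.04%) had an unadjusted p under 0.05. The same sign in all 7 animals was seen for none of the 10, and for 0.618% (higher) and 0.85% (lower) of features. By animal, the 10 genes were mostly lower in the tumor of animals 793 (9 of 10), 934 (8 of 10) and 1347 (7 of 10). In the tumors of 1287 and 702 6 of 10 were higher, and in those of 1109 and 638 5 of 10 were. These counts are descriptions, given without the share of all features in each tumor. Mean levels of neutrophil markers were -4.28 to -3.83 in 8-month tumors and -3.77 to -3.46 in their non-tumor tissue, and the medians at 12 months were -3.63 in tumors and -3.54 in non-tumor tissue.

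**Figure D4:**
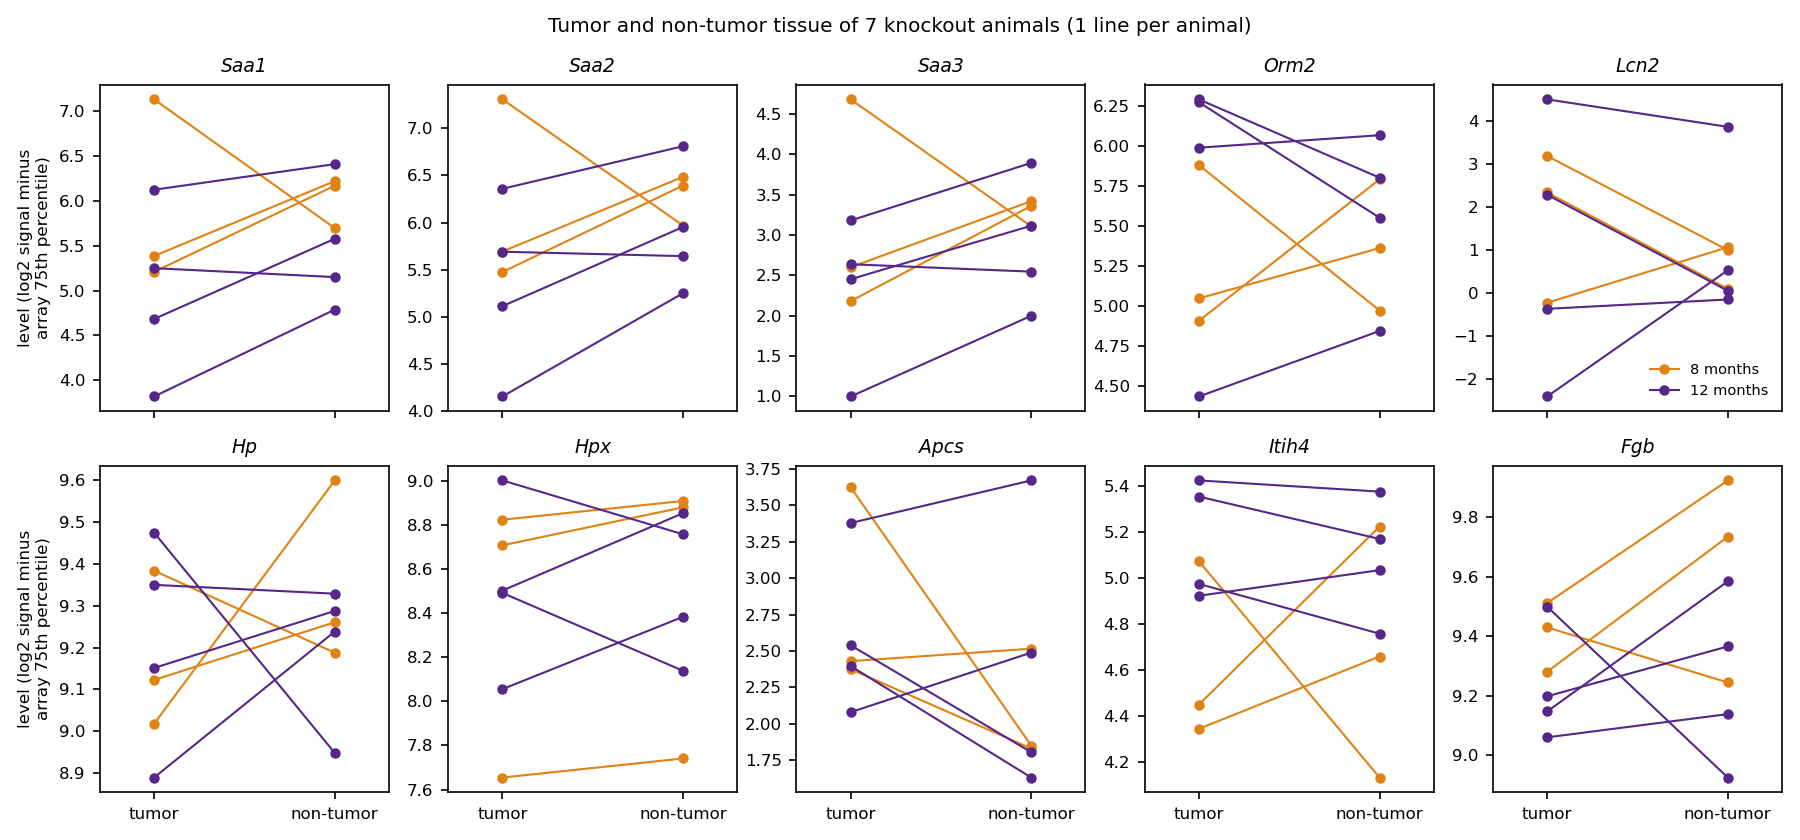
Level of each acute phase gene in tumor and in non-tumor tissue of the same KO animal (log2 units above the 75th percentile of its array, vertical axis), with 1 line for each of the 7 animals. Lines cross in both directions for every gene, most widely for Lcn2, where the difference runs from -2.93 to 2.24.

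The tissue difference was also compared between ages, and tumors between ages. Tumor minus non-tumor at 12 against 8 months differed by -1.12 for Lcn2 (SE 1.30), -0.55 for Apcs (SE 0.53, or -0.03 without animal 1347) and 0.28 for Orm2 (SE 0.50), and no gene passed (0% of features, with 1487 at an unadjusted p under 0.05). Tumors of 12 against 8 months differed by -0.94 for Saa1 (SE 0.65), -0.83 for Saa2 (SE 0.62), -0.84 for Saa3 (SE 0.71) and 0.55 for Itih4 (SE 0.30), with every gene overlapping and none past the threshold (0% of features, with 865 at an unadjusted p under 0.05). Without the tumor of animal 1287 the Saa differences were -0.33, -0.25 and -0.07, and without that of animal 793 they were -0.56, -0.44 and -0.40. Tumors of 8 and 12 months shared no slide either.

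Ordered by group mean, Saa1 was highest in KO livers at 2 months (7.44), followed by KO non-tumor (6.03) and KO tumor (5.91) tissue at 8 months, KO non-tumor tissue at 12 months (5.48), WT at 12 months (5.24), KO tumor at 12 months (4.97), WT at 2 months (4.51) and HET at 2 months (3.87). None of the 7 steps between neighbors exceeded the larger SD of the pair, and the same held for Saa2, Saa3, Orm2, Hpx and Fgb. For Lcn2 all 5 KO groups (0.71 to 1.76) ranked above HET (-0.92), WT at 12 months (-1.01) and WT at 2 months (-2.09). Among its 7 steps 2 exceeded the larger SD, that of 1.63 from KO non-tumor tissue at 8 months down to HET and that of 1.08 between the WT ages. For Itih4 the 4 KO groups of 8 and 12 months (4.62 to 5.17) ranked below WT at 2 months (5.65), HET (6.06), KO at 2 months (6.19) and WT at 12 months (6.28), and 2 steps exceeded the larger SD. Hp and Apcs had 1 such step each.

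How the genes vary together was described over the 18 arrays without tumor tissue, 1 per animal, which share 6 groups and their slides, so that the correlations hold differences between groups as well as between animals. Saa1, Saa2 and Saa3 moved almost as one, with Pearson r of 0.98 to 0.99. They kept these values without KO animal 64. Their r with Orm2 was 0.55 to 0.65 and dropped to between 0.11 and 0.17 without that animal. Lcn2 and Apcs had an r of 0.73, and Hp and Fgb 0.58. Of 45 pairs among the 10 genes, 15 had an r over 0.5 and 9 were below 0, with a median of 0.41 and a lowest value of -0.25.

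**Figure D5:**
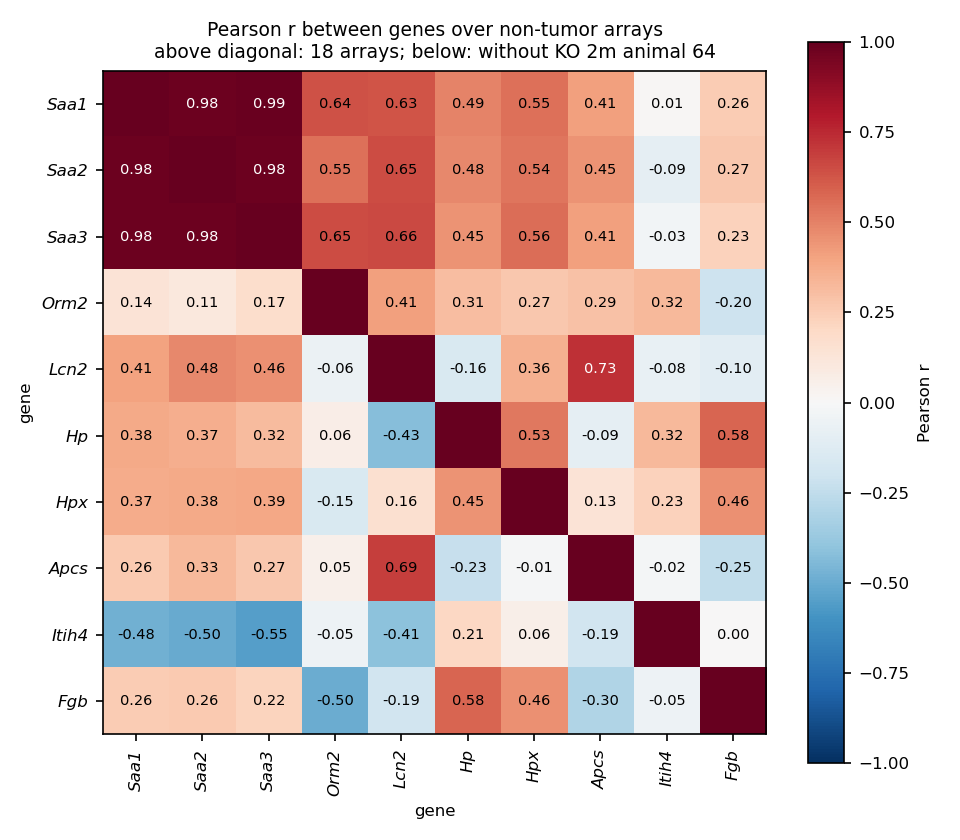
Pearson r between the levels of each pair of acute phase genes over 18 arrays without tumor tissue (above the diagonal) and over the 17 arrays left without KO animal 64 (below it), with color for r. The 3 Saa genes form a block at 0.98 to 0.99 on both sides, while their r with Orm2 is high above the diagonal alone.

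Among 11075 named genes that were well above background on all 18 arrays, those most like each acute phase gene were listed by r. For Saa1 they were Kpnb1 (0.80), Ttll12 (0.80) and Cyp2c55 (0.78), for Saa2 Ttll12 (0.85), Kpnb1 (0.84) and Slc41a2 (0.84), and for Saa3 Kpnb1 (0.83), Ttll12 (0.82) and Slc41a2 (0.80). No gene outside the list came as close to a Saa gene as the Saa genes came to each other. Orm2 was nearest to Orm1 (0.91), a near-identical paralog, and how far their probes read each other's transcript was not tested. Lcn2 was nearest to Ube2c (0.87), Gins2 (0.86) and Tacc3 (0.86). Itih4 was nearest to Cpn1, Uba1 and Itih1 (each 0.96). Fgb was nearest to Dcaf11 (0.75), Ambp (0.74) and Gstm1 (0.72), Hp to Ethe1 (0.83), Hpx to Cxadr (0.78) and Apcs to Klk1b3 (0.85). The mean of the neutrophil markers had an r of 0.57 with Saa1, 0.63 with Saa2, 0.56 with Saa3 and 0.53 with Lcn2, and the mean of the macrophage markers 0.46, 0.54, 0.47 and 0.57 with the same genes. The mean of the hepatocyte markers had an r of 0.56 with Itih4, 0.50 with Hp, 0.48 with Fgb, -0.44 with Apcs and -0.38 with Lcn2. Itih4 also had an r of -0.64 with the mean of 5 cholangiocyte markers and -0.45 with that of the macrophage markers.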

How the data were processed

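RNA from whole liver was measured on 25 one-colour Cy3 arrays, grouped by genotype, age and tissue from the labels alone. The authors deposited 1 file per array with intensity values from Agilent Feature Extraction 10.5.1.1, per the file headers, and a series matrix of log2 values. The deposited matrix served as an alternative, and how it was normalized between arrays is not given in the sources used here. The submitters' processing notes name limma without its role.

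The level is log2 of the processed signal, which is background-subtracted, minus the array's 75th percentile over non-control spots. Of 41174 probes 24375 (59.2%) were named through RefSeq GRCm38.p6, and unnamed probes were tested too. The probe of highest mean signal stood for a gene. A probe entered a fit if well above background on at least 2 of 18, 3 of 14 or 3 of 7 arrays.

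Tests used limma 3.58.1 in R 4.3.3, two-sided, with Benjamini-Hochberg adjustment over all features and a threshold of 0.05. The first fit held the 6 groups of tumor-free tissue (18 arrays, 12 residual degrees of freedom). The second took the 14 arrays of 7 animals with the animal as a block (6 degrees, or 5 with the interaction), and the third the 7 tumor arrays. The pairing comes from the animal numbers, as the labels give tumor and corresponding non-tumor tissue of 1 animal. After centring within age and tissue, the pair's own correlation was 0.23 to 0.75 and was the highest in 4 of 7 animals. The fits were tested on simulated data with known changes.

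The members, the further gene lists and the tests were chosen with earlier results of these data known. Text names all 10 genes, Mcl1 and up to 3 genes nearest each member by Pearson r. From each further list it names up to 4 genes with the smallest p and some others, such as Il6. The uncorrected mean signal column was not in the files used, so normexp background correction (offset 50), an alternative, took the median signal. The number of arrays limits precision. Further alternatives were quantile scaling, other filters, averaging a gene's probes, trend and robust fits, slide, scan day or Xist as terms, all arrays in 1 model, only the groups compared, and each array or animal left out. The slide as a random block was added after the data were seen.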

Additional observations from a re-analysis of the deposited data

Results flagged for a closer look

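In each group of 4 animals, and over the 7 tumor minus non-tumor differences, the gap from the highest or the lowest value to its neighbor was compared with the whole range by Dixon's criterion. Of 30 such sets of 4 or 7 values, 2 held a value apart, and chance alone marks about 1 in 20. Orm2 in KO tumors at 12 months had levels of 6.27, 5.99 and 6.29 in animals 1109, 638 and 702 and of 4.43 in animal 793, which stood below the others. In the same animal Saa1, Saa2, Saa3 and Lcn2 also had their lowest tumor level of that age. Lcn2 in KO non-tumor tissue at 12 months had levels of 0.04, -0.16 and 0.52 in animals 1109, 638 and 793 and of 3.85 in animal 702, which stood above the others. The tumor of animal 702 had the highest Lcn2 level of all 25 arrays (4.49). No test of a difference between effects (20 tests, of the KO effect between ages and of the tumor effect between ages) passed the threshold.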

How the results depend on the processing

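Under 39 alternative settings 3260 differences of the 10 genes were recomputed. Of these, 10 passed the threshold only under the alternative and 26 took the other sign where the main difference exceeded its standard error. The remaining 3224 kept their side of the threshold. The 61 of 120 main differences under their own standard error were given no direction, so sign changes of these are among the 3224. Members past the threshold in KO against HET at 2 months numbered 1 with the filter on every array, with normexp and quantile scaling and with trend and robust options, and 2 with the series matrix. In KO at 8 against 2 months they numbered 1 with that filter, normexp or the matrix. Leaving out single arrays gave 0 to 1 there and in KO against WT at 12 months, the 1 being Itih4 without KO non-tumor animal 638 at 12 months. Without single arrays the median of the 10 genes ran from -1.34 to -0.10 in KO at 8 against 2 months and from -1.04 to -0.28 at 12 against 2 months. With the slide as a fixed block, which could not be estimated for 6 of 12 comparisons, the median in WT at 12 against 2 months was -0.33, Saa2 and Hpx were each -0.29 and Itih4 -0.20. That block turned Itih4 in KO against WT at 2 months to -0.40 and Lcn2 in KO against HET to -0.29. In both of these KO animal 137 was the only KO animal that entered. The WT values with that block came through KO and HET animals on shared slides, with WT animal 641 alone at 12 months. Without single arrays Orm2 in KO ran from -1.12 to 0.0036 at 8 against 2 months and from -0.93 to 0.19 at 12 against 2 months, the positive values being those without KO animal 64. Under normexp, quantile scaling and the matrix, in that order, KO against WT at 12 months gave 0.0647, 0.0856 and 0.0617 for Hp and 0.34, 0.30 and 0.33 for Fgb. KO at 12 against 2 months gave 0.20, 0.18 and 0.19 for Hp and 0.30, 0.27 and 0.30 for Fgb, with 0.0784 for Hpx under quantile scaling. Fgb gave 0.0497, 0.0534 and 0.0833 in KO at 12 against 8 months and 0.22, 0.14 and 0.21 for the KO effect at 12 minus 2 months. These scalings moved the median of all features by 0.10 to 0.14 in the KO comparisons of 12 months with WT and with 2 months, and by -0.13 to -0.10 for the tissue difference between ages. The cause was not tested. All features past the threshold numbered 7 in KO against WT at 2 months (0 to 43 over the alternatives), 14 in KO against HET (0 to 68), 0 in HET against WT (0 to 18), 5 in KO against WT at 12 months (0 to 3235), 11 in WT between ages (0 to 1655), 0 in KO at 8 against 2 months (0 to 577), 2 at 12 against 2 months (0 to 1439), 0 at 12 against 8 months (0 to 1) and 0 for the KO effect between ages (0 to 288). Without the replicate block, that is without pairing by animal, tumor against non-tumor gave 0 calls, -0.34 for Saa1 and a median of -0.06. No other call among the 10 genes changed. Groups of 2 to 4 arrays limit every call.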
